A study of Homo sapiens with 3 samples.

Results

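RNA from HGC-27 cells treated with an siRNA against YAP was compared with RNA from cells treated with a control siRNA, gene by gene. The comparison covers the 11103 of 50868 listed genes whose FPKM (fragments counted on a gene, scaled for its length and for the library's depth) averaged at least 1 over the 3 libraries of the series. HGC-27 is an established human cell line from gastric cancer. Per the labels, all cells were at passage 6 and were exposed to siRNA for 48 h. One culture received a control siRNA (n.c.), one an siRNA against YAP (siYAP) and one an siRNA against IRF3 (siIRF3), which encodes a factor that switches on interferon genes after viral nucleic acid is sensed. Each condition has 1 library, so no difference has a replicate check, no test across samples was possible and no p-value is given. The IRF3 siRNA library serves here to show which differences were found in the YAP siRNA library and not in the other knockdown.

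YAP is a transcriptional coactivator that has no DNA-binding domain of its own and acts mainly through the TEAD family of DNA-binding factors. The Hippo pathway restrains it: the MST kinases, encoded by STK3 and STK4, activate the LATS kinases, which phosphorylate YAP and its paralogue TAZ and keep them out of the nucleus. Active YAP and TAZ raise genes of growth, matrix and adhesion in epithelial and mesenchymal cells, and the pathway is often disturbed in gastric cancer.

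The marker genes of the cells were read before the comparison. Of 18 epithelial markers, 1 passed the filter, the claudin gene CLDN7 at 1.81, 2.28 and 2.52 FPKM in the control, IRF3 siRNA and YAP siRNA libraries. EPCAM, CDH1, KRT18 and KRT19 stayed under 0.2 FPKM in every library. Of 18 gastric lineage markers 5 passed, among them the transcription factor genes GATA6 (4.50, 3.53 and 3.67 FPKM) and KLF5 (6.03, 4.02 and 4.29 FPKM), while MUC6, TFF1, TFF2 and GKN1 had no count. Of 12 fibroblast markers 11 passed. The summed FPKM of that list was 1000 in the control library, 904 in the IRF3 and 933 in the YAP siRNA library, most of it from COL3A1 and COL1A1. The 3 libraries thus shared a profile with collagen genes high and the epithelial markers other than CLDN7 under 1 FPKM. What this means for the line's identity was not tested. No endothelial marker of 8 passed, and neither did the leukocyte gene PTPRC. The gastric lineage markers were mixed. MUC6, TFF1, TFF2 and GKN1 were absent from all 3 libraries. Beside GATA6 and KLF5, those that passed were GATA4 (2.65, 2.13 and 1.81 FPKM), CDX2 (2.99, 2.18 and 2.51 FPKM) and MUC1 (1.24, 1.81 and 1.26 FPKM).

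The libraries held 13949401 (control), 14941556 (IRF3 siRNA) and 14385959 (YAP siRNA) counts on genes. A log2 ratio below is always log2 of FPKM plus 1 in the YAP siRNA library minus the same in the control, which understates the change of low genes. Beside it stands the ratio of counts, each divided by its library's total, with a 95% interval from the exact binomial distribution. The intervals cover counting error only, since reads copied by PCR are not separate molecules, and they hold nothing of the variation between cultures. The median log2 ratio over the kept genes was -0.02, 90% of genes lay between -0.57 and 0.38, and 67.5% of genes lay within 1.2-fold of the control. Nearest to the filter, OSBPL7 was just inside at a mean of 1.0002 FPKM (log2 ratio 0.09) and ACY3 just outside at 0.9998 FPKM (log2 ratio 0.50). In bulk RNA, fewer cells of a kind and less RNA per cell cannot be told apart.

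YAP1 (ENSG00000137693, chromosome 11, 102110461 to 102233423, hg38), the targeted gene, stood at 5.89 FPKM in the control, 3.58 FPKM with IRF3 siRNA and 2.23 FPKM with YAP siRNA, from 861, 561 and 337 counts. It was lowest in the library labelled as its knockdown, with a log2 ratio of -1.09 (count ratio 0.380, 0.334 to 0.431). Against the IRF3 siRNA library its count ratio was 0.624 (0.543 to 0.715), so YAP1 was also below the control with the other siRNA. WWTR1, which encodes TAZ, had 2.82, 2.35 and 2.43 FPKM and a count ratio of 0.862 (0.758 to 0.981). Among the TEAD genes, TEAD2 stood at 9.999, 8.49 and 11.2 FPKM with a count ratio of 1.12 (1.01 to 1.24). TEAD3 (17.3, 19.8 and 17.5 FPKM) and TEAD4 (9.68, 10.8 and 9.50 FPKM) had intervals that included 1. TEAD1 was under the filter at 0.864, 0.328 and 0.541 FPKM. VGLL4, a cofactor that competes with YAP for TEAD, had 7.33, 5.32 and 6.52 FPKM and a count ratio of 0.889 (0.818 to 0.967). The YAP siRNA library was therefore further below the control in YAP1 itself than in any of these partners. IRF3, the gene targeted in the other knockdown, had 3.55, 2.90 and 3.86 FPKM and shares exon sequence with BCL2L12, so it checks that label only weakly.

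The direct target genes of YAP and TEAD were read from a list of 22, of which 15 passed the filter. By a rule that called a gene when its whole counting interval lay beyond 1.5-fold, 2 of the 15 were lower with YAP siRNA and 0 higher. Over all 11103 genes the same rule called 490 lower (4.41%) and 77 higher (0.694%). By the looser rule of an interval that excludes 1, 9 of the 15 were lower and 0 higher, where over all genes 3358 were lower (30.2%) and 2460 higher (22.2%). The list's median log2 ratio was -0.21, beside -0.02 for all genes, and its median against the IRF3 siRNA library was 0.06. PTPN14, a phosphatase that binds YAP, went from 4.97 FPKM in the control to 1.56 with IRF3 siRNA and 1.87 with YAP siRNA (count ratio 0.377, 0.340 to 0.417). ASAP1, a regulator of ARF GTPases, went from 2.32 to 1.02 and 1.199 FPKM (count ratio 0.516, 0.441 to 0.603). Both were lower in both knockdowns, and neither was lower with YAP siRNA than with IRF3 siRNA. TGFB2, which encodes a TGF-beta ligand, had 2.29, 0.895 and 1.25 FPKM with a count ratio of 0.545 (0.429 to 0.688), and MYOF, which encodes the membrane protein myoferlin, 2.46, 1.26 and 1.41 FPKM with 0.573 (0.478 to 0.686). Of the targets read most often as reporters of YAP, CYR61, a secreted matrix protein gene, stood at 6.15, 6.72 and 5.80 FPKM with a count ratio of 0.944 (0.794 to 1.12). CTGF, the related matrix protein gene, had 49, 49 and 39 counts (1.502, 1.40 and 1.16 FPKM) and a count ratio of 0.772 (0.493 to 1.1997), or 0.702 with the overlapping record RP11-69I8.3 summed. AXL, a receptor tyrosine kinase gene, stood at 8.41, 7.99 and 8.53 FPKM. The intervals of these 3 genes include 1, so none differed beyond counting error. The interval of AXL was narrow (count ratio 1.01, 0.921 to 1.12), while the few counts of CTGF left a wide range. AMOTL2, an angiomotin gene, was under the filter at 1.03, 0.746 and 0.908 FPKM, and ANKRD1, which encodes a nuclear ankyrin repeat protein, had 0 counts in every library. IGFBP3, which binds insulin-like growth factors, stood at 19.2, 17.7 and 16.1 FPKM, with a count ratio of 0.839 (0.794 to 0.887) to the control and 0.906 (0.858 to 0.958) to the IRF3 siRNA library.

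The bases before the start sites of CTGF and ANKRD1 are shown because these are textbook TEAD-bound promoters. ANKRD1 had no count in any library, so no difference could be called, and the few counts of CTGF left a wide interval. Both windows are taken from the RefSeq promoter table for GRCh38.p14, which had an entry for 8107 (73.0%) of the kept genes. They show the 250 bases upstream of the start, 5′ to 3′ on the gene's strand, and capitals mark the motifs searched on both strands: the TEAD core GGAATG, the AP-1 site TGANTCA, the CRE core TGACG, the E-box CACGTG, the CCAAT box CCAAT and the CArG box. The window of CTGF is chr6:131951373-131951622 on the minus strand and that of ANKRD1 is chr10:90921088-90921337 on the minus strand.
CTGF: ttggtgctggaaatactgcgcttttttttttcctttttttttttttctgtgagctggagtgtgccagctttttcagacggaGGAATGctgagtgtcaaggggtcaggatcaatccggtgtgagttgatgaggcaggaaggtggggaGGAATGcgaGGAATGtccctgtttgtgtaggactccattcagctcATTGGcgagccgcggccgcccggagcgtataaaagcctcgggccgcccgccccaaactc
ANKRD1: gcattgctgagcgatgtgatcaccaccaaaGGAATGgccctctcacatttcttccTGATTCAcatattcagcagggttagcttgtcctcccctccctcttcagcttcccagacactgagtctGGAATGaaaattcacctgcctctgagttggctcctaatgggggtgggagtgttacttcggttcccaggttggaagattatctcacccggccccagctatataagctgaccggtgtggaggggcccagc
The CTGF window holds 3 TEAD cores and 1 CCAAT box, and the ANKRD1 window 2 TEAD cores and 1 AP-1 site. Of the 35116 promoter windows in the table, 11.9% hold at least 1 TEAD core and 6.57% an AP-1 site, and 11240 windows hold a CCAAT box. A match is a description of letters and not of binding. With under 80% of the kept genes matched, motif shares among the changed genes are void as a check and are not given.

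The kinases, adaptors and upstream regulators of the Hippo pathway were mostly lower with YAP siRNA. Of 24 kept genes of that list, 8 were lower by the 1.5-fold interval rule and 0 higher, against 4.41% and 0.694% of all genes. The median log2 ratio was -0.31. The same list had a median of -0.32 with IRF3 siRNA, over the same control. FAT1, a giant atypical cadherin upstream of the kinases, had 3201, 1336 and 1235 counts (9.23, 3.60 and 3.45 FPKM) and a log2 ratio of -1.20. STK4, the MST1 kinase gene, had 2.31, 1.03 and 0.948 FPKM and a count ratio of 0.410 (0.347 to 0.482). The control was the highest library for both genes, and the 2 knockdowns lay close together. STRN, a striatin scaffold of the complex that opposes MST kinases, had 2.10, 0.941 and 0.619 FPKM, and here the YAP siRNA library was the lowest, with a count ratio to the IRF3 siRNA library of 0.657 (0.491 to 0.875). AMOT, which encodes angiomotin, had 13.4, 7.45 and 6.90 FPKM, and WWC2 and WWC3, relatives of the KIBRA scaffold gene, had count ratios of 0.396 (0.346 to 0.452) and 0.465 (0.394 to 0.547). LATS2, the kinase that acts on YAP directly, had 2.77, 2.04 and 2.38 FPKM and an interval that included 1 (0.707 to 1.04). NF2, the upstream suppressor merlin, had a count ratio of 0.721 (0.638 to 0.814) and SAV1, the adaptor of the MST kinases, 0.755 (0.675 to 0.844). RASSF1 and AJUBA had log2 ratios of 0.08 and 0.02. The kept genes of this list have a median exon length of 8424 bp, against 4133 bp for all kept genes. Ratios to the control also varied with exon length over all genes, and the part of length in this list was not tested.

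**Figure D1:**
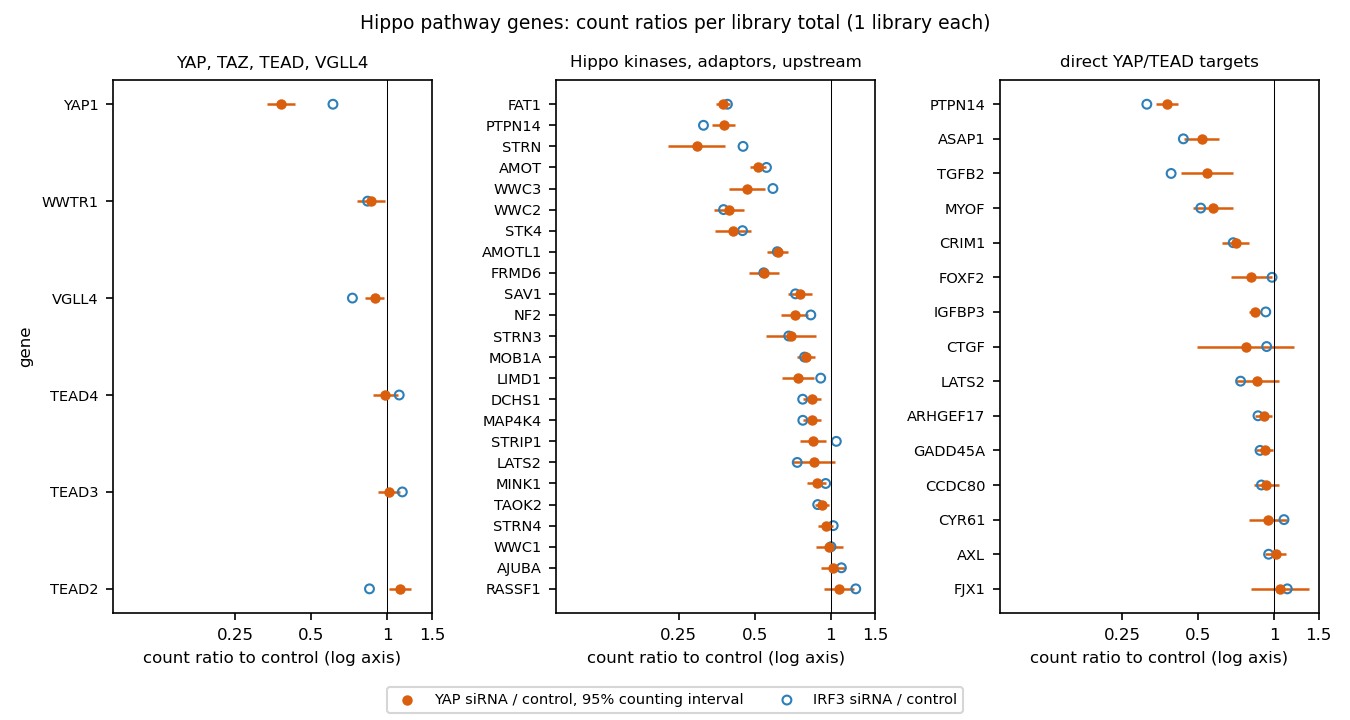
Count ratios to the control (x axis, log scale) of the kept genes in 3 Hippo pathway lists (y axis), with 1 library a condition. Filled points are YAP siRNA with 95% counting intervals as lines and open points are IRF3 siRNA. YAP1 lies at 0.380 with YAP siRNA, the TEAD genes lie near 1, and most upstream genes have both points left of 1.

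Over all genes, 39 of 11103 (0.351%) were at least 2-fold higher with YAP siRNA and 52 (0.468%) at least 2-fold lower on the FPKM plus 1 scale, so 42.9% of the calls were higher. This share depends on the scale. It was 30.6% with a pseudocount of 0.1 FPKM (106 higher and 240 lower), 20.3% with TMM-scaled count rates (CPM) (44 and 173) and 32.7% with median-of-ratios size factors (124 and 255). Of the 39 higher genes 29 were protein-coding and 21 overlapped the exons of another counted gene, and of the 52 lower genes 36 were protein-coding and 26 shared exons. Among all kept genes 84.8% were protein-coding and 41.7% shared exons. The genes lower by 2-fold have a median exon length of 5170 bp and those higher 1849 bp.

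**Figure D2:**
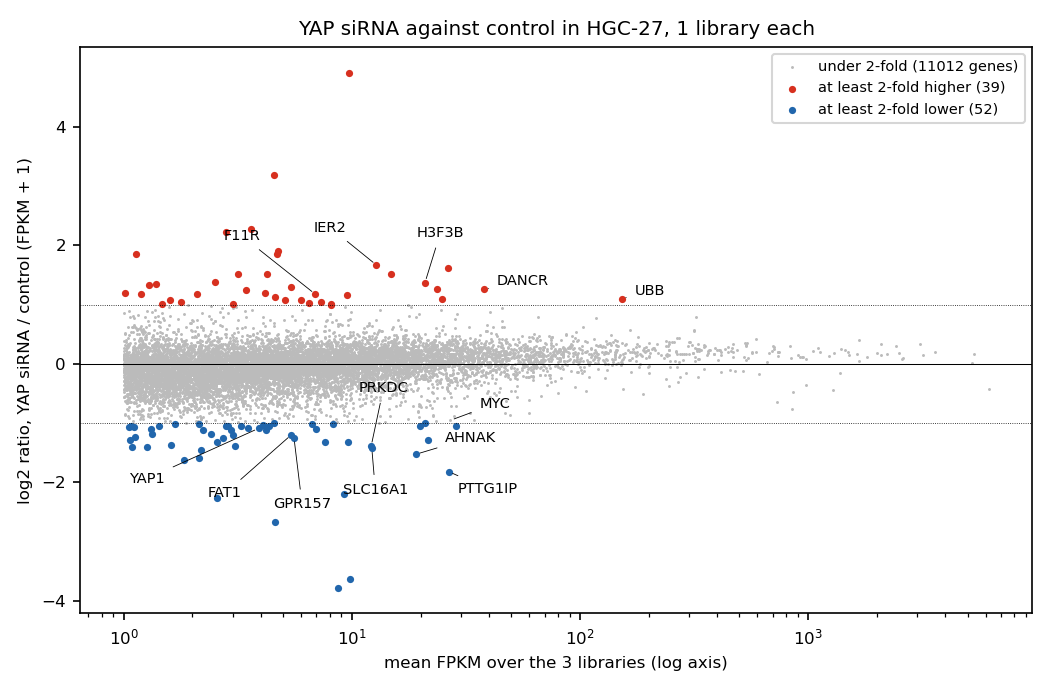
Log2 ratio of YAP siRNA to control (y axis, FPKM plus 1) against the mean FPKM over the 3 libraries (x axis, log scale) for 11103 genes, 1 point a gene. The 39 genes at least 2-fold higher are red, the 52 at least 2-fold lower are blue, and dotted lines mark 2-fold. Most genes lie near 0, and the named genes with high levels, such as PTTG1IP, AHNAK and UBB, stand clear of them.

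A gene can differ from the control in both knockdowns or in the YAP siRNA library alone. At 2-fold on the FPKM plus 1 scale, 7 genes (0.063%) were higher and 13 (0.117%) lower in the YAP siRNA library than in both others. By the 1.5-fold interval rule, 16 (0.144%) were higher and 34 (0.306%) lower than in both others. The ratios to the 2 other libraries share the YAP siRNA library, so they are not independent. Of the 34 lower genes 24 share exons with another counted gene, and 9 are protein-coding and share none. Among them were PTTG1IP, RUNX3, GPR157, UBE2G2, CHAC1, MYC, TCEA1 and LPGAT1. Of the 16 higher genes 12 share exons, and the 2 protein-coding genes that share none were UBE2D2 and EIF2S3L. UBE2G2, UBE2D2, TCEA1, LPGAT1 and EIF2S3L are outside the rule for named genes and were chosen after their values were seen.

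PTTG1IP (ENSG00000183255, chromosome 21, 44849585 to 44873903, minus strand), which encodes a partner that carries securin into the nucleus, had 3347, 3510 and 907 counts (35.6, 34.9 and 9.36 FPKM). The control and the IRF3 siRNA library lay together and the YAP siRNA library lay far below, at a log2 ratio of -1.82. The count ratio to the control was 0.263 (0.244 to 0.283). To the IRF3 siRNA library it was 0.268 (0.249 to 0.289). Securin itself, PTTG1, stood at 56.7, 66.0 and 66.9 FPKM. UBE2G2 (chromosome 21, 44768580 to 44802019), a ubiquitin-conjugating enzyme of protein degradation at the endoplasmic reticulum, lies close to PTTG1IP on the same strand. It had 4.57, 3.60 and 1.68 FPKM and a count ratio of 0.369 (0.324 to 0.419). SUMO3 (chromosome 21, 44805617 to 44818779), which lies between them, had 20.1, 20.8 and 21.9 FPKM and a count ratio of 1.09 (1.002 to 1.19), so the low values were not shared by the gene in the middle. SUMO3, a ubiquitin-like modifier gene, was named for its position.

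GPR157, an orphan receptor gene, had 599, 619 and 211 counts (7.25, 6.997 and 2.48 FPKM) and a log2 ratio of -1.25. RUNX3, a transcription factor gene known as a tumour suppressor in gastric cancer, had 574, 452 and 163 counts (4.05, 2.98 and 1.12 FPKM) and a count ratio of 0.275 (0.230 to 0.328). In RUNX3 the IRF3 siRNA library lay between the control and the YAP siRNA library, while in GPR157 it lay at the control. SLC16A1, the monocarboxylate transporter that moves lactate, had 17.4, 13.4 and 5.86 FPKM and a log2 ratio of -1.42. It shares exons with its antisense gene SLC16A1-AS1, and with both summed the count ratio was 0.346. SHC1, an adaptor between receptor tyrosine kinases and RAS, had 2862, 2702 and 1420 counts (26.7, 23.5 and 12.8 FPKM). Its count ratio was 0.481 (0.451 to 0.513), or 0.671 with the genes whose exons it shares. ZBTB9, a zinc finger gene, had 4.11, 4.13 and 0.951 FPKM and a count ratio of 0.231 (0.172 to 0.306), but 0.668 when summed with its exon-sharing neighbours.

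MYC, the growth transcription factor and a known target of YAP in several tissues, had 4177, 4127 and 2160 counts (33.4, 30.8 and 16.8 FPKM). The control and IRF3 siRNA libraries lay within 1.2-fold of each other, and the count ratio with YAP siRNA was 0.501 (0.476 to 0.528), a log2 ratio of -0.95, just short of the 2-fold rule. CHAC1, a glutathione-degrading enzyme that ATF4 induces, had 12.2, 10.9 and 5.77 FPKM and a count ratio of 0.475 (0.425 to 0.531). ATF4 itself stood at 173, 201 and 210 FPKM and its target TRIB3 at 23.6, 31.9 and 29.2 FPKM, both lowest in the control library. Of the 24 kept genes of the ATF4 list 1 was lower and 0 higher by the 1.5-fold interval rule, with a median of -0.07. That rule called 4.41% of all genes lower, and 1 of 24 is near this share. TCEA1, a transcription elongation factor gene, had 5.89, 5.26 and 2.92 FPKM, and LPGAT1, a phospholipid acyltransferase gene, 1.75, 1.62 and 0.843 FPKM.

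**Figure D3:**
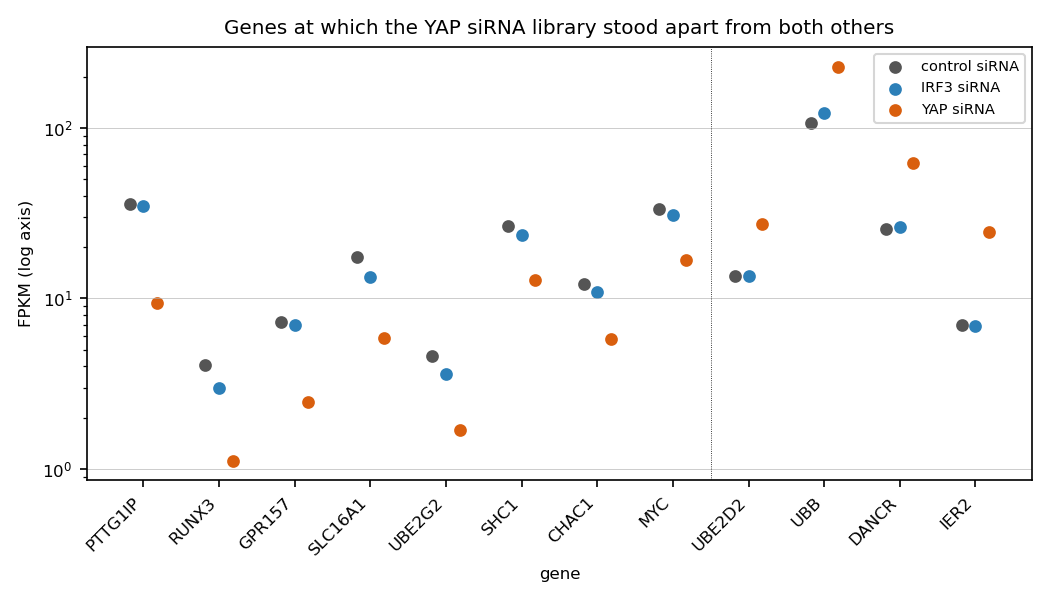
FPKM (y axis, log scale) of 12 genes (x axis) in the control, IRF3 siRNA and YAP siRNA libraries, 1 point a library. Left of the dotted line are genes lower with YAP siRNA and right of it genes higher. At PTTG1IP the points are 35.6, 34.9 and 9.36, and at IER2 they are 7.01, 6.93 and 24.5.

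Among the genes higher with YAP siRNA alone, IER2 had the largest count ratio of those with over 50 counts in every library. IER2 (ENSG00000160888, chromosome 19, 13150415 to 13154908), an immediate early gene induced within minutes by growth factors, had 617, 653 and 2222 counts (7.01, 6.93 and 24.5 FPKM). The control and IRF3 siRNA libraries lay together, and the count ratio was 3.49 (3.19 to 3.82), with a log2 ratio of 1.67. With the overlapping record CTC-250I14.6 summed the ratio was 3.49 as well. DANCR, a long noncoding RNA that hosts a small nucleolar RNA, had 980, 1069 and 2470 counts (25.6, 26.1 and 62.7 FPKM) and a count ratio of 2.44 (2.27 to 2.63). HNRNPU-AS1, a long RNA next to the gene of a splicing protein, had 0.959, 0.896 and 2.24 FPKM and a count ratio of 2.33 (1.74 to 3.15). FBF1, a gene of the transition fibres of cilia, has 2 records at 1 locus. The record with the higher value (ENSG00000281844) had 65, 27 and 214 counts and the other (ENSG00000188878) 278, 411 and 171 counts, and their sums of 343, 438 and 385 gave a ratio of 1.09 (0.939 to 1.26). Exon sharing could not be read for HNRNPU-AS1 or for the first FBF1 record, which GENCODE 29 does not hold.

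The bases before IER2, DANCR and SHC1 are shown because these genes stood apart from both other libraries and their RefSeq start lies at the deposited start of the gene. They were picked after their values were seen. As before, each window is the 250 upstream bases in the RefSeq table: chr19:13150161-13150410 on the plus strand for IER2, chr4:52712144-52712393 on the plus strand for DANCR and chr1:154974377-154974626 on the minus strand for SHC1. Capitals mark the same motifs.
IER2: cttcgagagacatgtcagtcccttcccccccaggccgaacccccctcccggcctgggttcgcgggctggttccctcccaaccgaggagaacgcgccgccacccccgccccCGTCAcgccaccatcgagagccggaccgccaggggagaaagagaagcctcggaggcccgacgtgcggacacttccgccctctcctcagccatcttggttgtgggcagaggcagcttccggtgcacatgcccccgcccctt
DANCR: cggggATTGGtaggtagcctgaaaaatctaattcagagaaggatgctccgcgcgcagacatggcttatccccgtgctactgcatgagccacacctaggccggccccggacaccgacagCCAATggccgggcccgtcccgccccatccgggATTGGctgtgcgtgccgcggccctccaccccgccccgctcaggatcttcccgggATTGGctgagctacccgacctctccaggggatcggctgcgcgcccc
SHC1: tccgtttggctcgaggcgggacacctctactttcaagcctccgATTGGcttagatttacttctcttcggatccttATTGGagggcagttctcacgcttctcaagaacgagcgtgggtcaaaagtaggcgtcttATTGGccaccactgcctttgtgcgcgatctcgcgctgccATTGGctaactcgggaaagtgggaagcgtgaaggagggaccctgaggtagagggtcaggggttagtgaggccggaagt
The IER2 window holds 1 CRE core, which 21.2% of all windows in the table hold. The DANCR window holds 4 CCAAT boxes and so does that of SHC1, which went the other way. None of the 3 windows holds the letters of the TEAD core, which says nothing of TEAD at sites elsewhere.

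IER2 was the 1 gene of 24 kept immediate early genes that was higher by the 1.5-fold interval rule. ZFP36L1 and MYC were lower by it, and the median log2 ratio of the list was -0.03. Of all genes 4.41% were lower by this rule and 0.694% higher. FOS had 176, 189 and 212 counts and a count ratio of 1.17 (0.952 to 1.43). JUNB stood at 102, 101 and 98.5 FPKM, and SRF, the factor that drives many of these genes, at 20.7, 22.1 and 20.7 FPKM. EGR1 had 95, 79 and 48 counts (2.17, 1.68 and 1.06 FPKM), a count ratio of 0.490 (0.339 to 0.700). ZFP36L1, an RNA-binding protein of mRNA decay, stood at 8.99, 5.89 and 4.26 FPKM (count ratio 0.474, 0.432 to 0.519).

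UBB, a gene that encodes a chain of ubiquitin units, was higher with YAP siRNA. It had 7722, 9505 and 17119 counts (107, 122 and 229 FPKM) and a count ratio of 2.15 (2.09 to 2.21). The YAP siRNA value lay far above the pair of other libraries. UBE2D2, a ubiquitin-conjugating enzyme, had 1083, 1156 and 2251 counts (13.6, 13.5 and 27.3 FPKM) and a count ratio of 2.02 (1.87 to 2.17). RPS27A, which encodes ubiquitin fused to a ribosomal protein, stood at 77.2, 96.9 and 113 FPKM (count ratio 1.46, 1.41 to 1.51). Of the 38 kept ubiquitin precursor and proteasome genes, 27 were higher and 3 lower with intervals that exclude 1, at a median log2 ratio of 0.21. For all genes the shares were 22.2% higher and 30.2% lower. The proteasome subunits PSMA4 (8.04, 10.3 and 11.5 FPKM) and PSMD8 (22.4, 30.3 and 29.6 FPKM) were nearly as high with IRF3 siRNA, and the list's median against that library was 0.04.

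Most genes lower with YAP siRNA were near the IRF3 siRNA library. Over the 490 genes lower by the 1.5-fold interval rule the median log2 ratio was -0.71, and the same genes had a median of -0.66 with IRF3 siRNA, while over the 77 higher genes the medians were 0.91 and 0.72. Both comparisons use the same control library, so their likeness is not independent evidence. AHNAK, a giant scaffold protein, had 10434, 3418 and 3534 counts (35.1, 10.7 and 11.5 FPKM) and a log2 ratio of -1.53. PRKDC, the catalytic subunit of the DNA-dependent protein kinase, had 20.9, 8.20 and 7.36 FPKM and a log2 ratio of -1.39. In both the control stood apart, and the ratio of YAP siRNA to IRF3 siRNA was 1.07 (1.02 to 1.13) for AHNAK and 0.897 (0.844 to 0.953) for PRKDC. WNK1, a kinase of ion transport, had 5.22, 2.13 and 1.71 FPKM, MAP1B, a microtubule-associated protein gene, 4.42, 1.39 and 1.40 FPKM, and MED22, a Mediator subunit gene, 3.40, 0.732 and 0.697 FPKM. CNOT1, on which the CCR4-NOT deadenylase is built, had 11.3, 4.82 and 4.74 FPKM. MKI67, which encodes the proliferation antigen Ki-67, had 1228, 530 and 448 counts (5.02, 2.02 and 1.78 FPKM) and a log2 ratio of -1.12. The processed pseudogenes TUBBP1 (11.98, 0.741 and 1.05 FPKM) and FTH1P10 (13.8, 15.5 and 0.188 FPKM) are uncertain, since each is a copy of a tubulin or a ferritin gene. FTH1P10, unlike the other genes of this paragraph, was low in the YAP siRNA library alone.

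Of the 14 kept spectrin, plakin and giant scaffold genes 8 were lower by the 1.5-fold interval rule and 0 higher, and the median log2 ratio was -0.65. All 14 intervals lay below 1, as did those of 30.2% of all genes. DYNC1H1, the heavy chain of cytoplasmic dynein, had 65.4, 39.3 and 36.4 FPKM and a count ratio of 0.557 (0.543 to 0.571), and HUWE1, a giant ubiquitin ligase, 32.1, 18.8 and 17.3 FPKM. PLEC, which encodes plectin, was the least changed at 14.97, 15.3 and 13.2 FPKM (count ratio 0.884, 0.853 to 0.915). Of the 36 kept chromatin modifying enzymes and remodellers 9 were lower and 0 higher by the 1.5-fold interval rule, at a median of -0.28. Among all genes that rule called 4.41% lower and 0.694% higher. KMT2A, a histone methyltransferase, had 2.14, 0.758 and 0.689 FPKM (count ratio 0.322, 0.282 to 0.368), and EP300, an acetyltransferase and coactivator, 5.65, 3.26 and 3.14 FPKM. SMARCB1, a remodeller subunit gene, stood at 20.7, 22.7 and 23.7 FPKM and the deacetylase gene HDAC3 at 13.1, 14.96 and 15.3 FPKM. The median exon length was 19718 bp in the scaffold list and 12056 bp in the chromatin list.

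Protein-coding genes were set in 5 groups of equal size by exon length. Exon length here is all the exon sequence of a gene in GENCODE 29, which need not be the length behind its FPKM. From the shortest (median 1985 bp) to the longest (median 9572 bp), the median log2 ratio with YAP siRNA was 0.12, 0.03, -0.05, -0.10 and -0.19. The medians with IRF3 siRNA over the same control were 0.13, 0.02, -0.05, -0.10 and -0.21. Between the 2 knockdown libraries the medians stayed between -0.01 and 0.01. In the shortest group 0.85% of genes were lower by the 1.5-fold interval rule and 1.59% higher, and in the longest 14.2% and 0.212%. The 490 lower genes have a median exon length of 7904 bp, and the 34 that were lower than in both others 4342 bp, near the 4133 bp of all kept genes. The ratios also varied with GC content and with level. From the lowest to the highest of 5 groups by GC, the median with YAP siRNA went from -0.16 to 0.06 and the share of lower genes from 8.71% to 0.797%, and here the median between the knockdowns moved as well, from 0.05 to -0.06. From the lowest to the highest of 5 groups by mean FPKM, the median went from -0.14 to 0.10 and the share of lower genes from 10.2% to 1.65%. Which of length, GC content and level the differences go with was not tested. No measure of RNA integrity or of coverage along transcripts was used here, and their part was not tested.

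**Figure D4:**
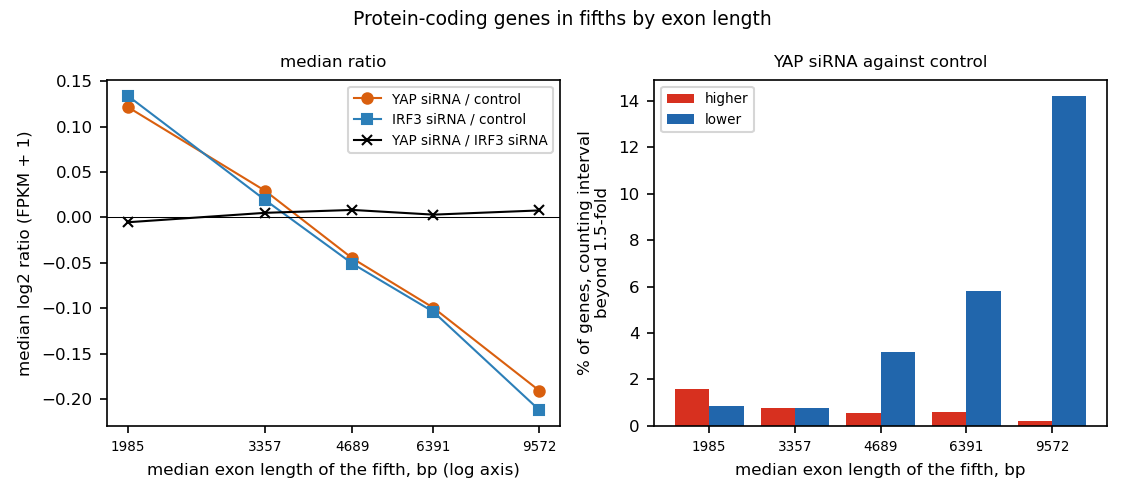
Protein-coding genes in 5 groups by exon length (x axes, median length of each group). Left, the median log2 ratio of FPKM plus 1 for 3 pairs of libraries; right, the percentage of genes in each group whose counting interval lies beyond 1.5-fold with YAP siRNA. Both ratios to the control fall from 0.12 or above to -0.19 or below, the ratio between knockdowns stays near 0, and the share of lower genes reaches 14.2%.

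Several genes were higher to a like degree in both knockdowns. H3F3B, a gene of the replacement histone H3.3, had 1658, 4828 and 4703 counts (9.71, 26.4 and 26.7 FPKM) and a log2 ratio of 1.37, and its count ratio was 2.23 with the overlapping gene UNK summed. NUDCD3, a dynein cochaperone gene, had 4.65, 12.4 and 11.6 FPKM, F11R, a tight junction adhesion molecule, 3.55, 7.87 and 9.30 FPKM and PJA1, a ubiquitin ligase, 1.70, 5.56 and 5.21 FPKM. C1GALT1C1, the chaperone of the core O-glycan transferase, had 51, 282 and 305 counts and a count ratio of 5.80 (4.30 to 7.96). The control was the lowest library at each of these genes. NXN, which encodes nucleoredoxin, had 10.03, 21.96 and 20.9 FPKM (count ratio 2.08, 1.94 to 2.23). MRPS16, a mitochondrial ribosomal protein gene, was highest with YAP siRNA at 13.98, 22.1 and 35.005 FPKM (count ratio 2.50, 2.31 to 2.72, or 2.30 with overlapping records summed). Unlike H3F3B, the related H3.3 gene H3F3A was lowest with YAP siRNA, at 629, 957 and 474 counts (count ratio 0.731, 0.647 to 0.825).

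Ribosomal protein and nuclear respiratory chain genes were higher by small amounts. Among all kept genes 22.2% of intervals lay above 1 and 30.2% below. Of 78 cytosolic ribosomal protein genes 73 had an interval above 1 and 1 below, at a median log2 ratio of 0.18. Of these genes 0 passed the 1.5-fold interval rule. RPL8 (252, 323 and 375 FPKM) and RPS21 (248, 341 and 363 FPKM) were among the largest, and RPL4 stood at 277, 258 and 267 FPKM. Of 53 nuclear respiratory chain genes 46 were above 1 and 0 below, at a median of 0.23. NDUFB9, a complex I subunit gene, was the 1 that passed the 1.5-fold interval rule (249, 293 and 431 FPKM). Of 55 mitochondrial ribosomal protein genes 40 were above 1 and 2 below, at a median of 0.18. With IRF3 siRNA the medians of these lists were 0.19, 0.25 and 0.24, in the same order, and against that library the YAP siRNA medians were 0.01, -0.02 and 0.01. Median exon lengths were 3056, 2708 and 2549 bp. Translation factors did not share this direction: of 32 kept, 13 intervals were above 1 and 16 below, 4 genes were lower and 0 higher by the 1.5-fold interval rule, and the median was -0.07.

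Genes of the mitochondrial genome went the other way from the nuclear ones although they are short (median 999 bp). All 8 that passed the filter were lower with an interval below 1, as were 30.2% of all genes. By the 1.5-fold interval rule 2 of them were lower, as were 4.41% of all genes. The median log2 ratio was -0.50, beside -0.32 with IRF3 siRNA. MT-ND5 had 29242, 19509 and 17763 counts (count ratio 0.589, 0.578 to 0.600), and MT-CO1, the most abundant, stood at 7331, 5775 and 5478 FPKM. The other 5 genes of the list were under the filter: MT-ND4 and MT-ATP8 were listed at 0, MT-ATP6 and MT-CO3 at 1 count and MT-ND4L at 9 counts in the control. Genes that every cell uses were thus listed at or near 0, so how the counting treated the mitochondrial genome is uncertain.

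**Figure D5:**
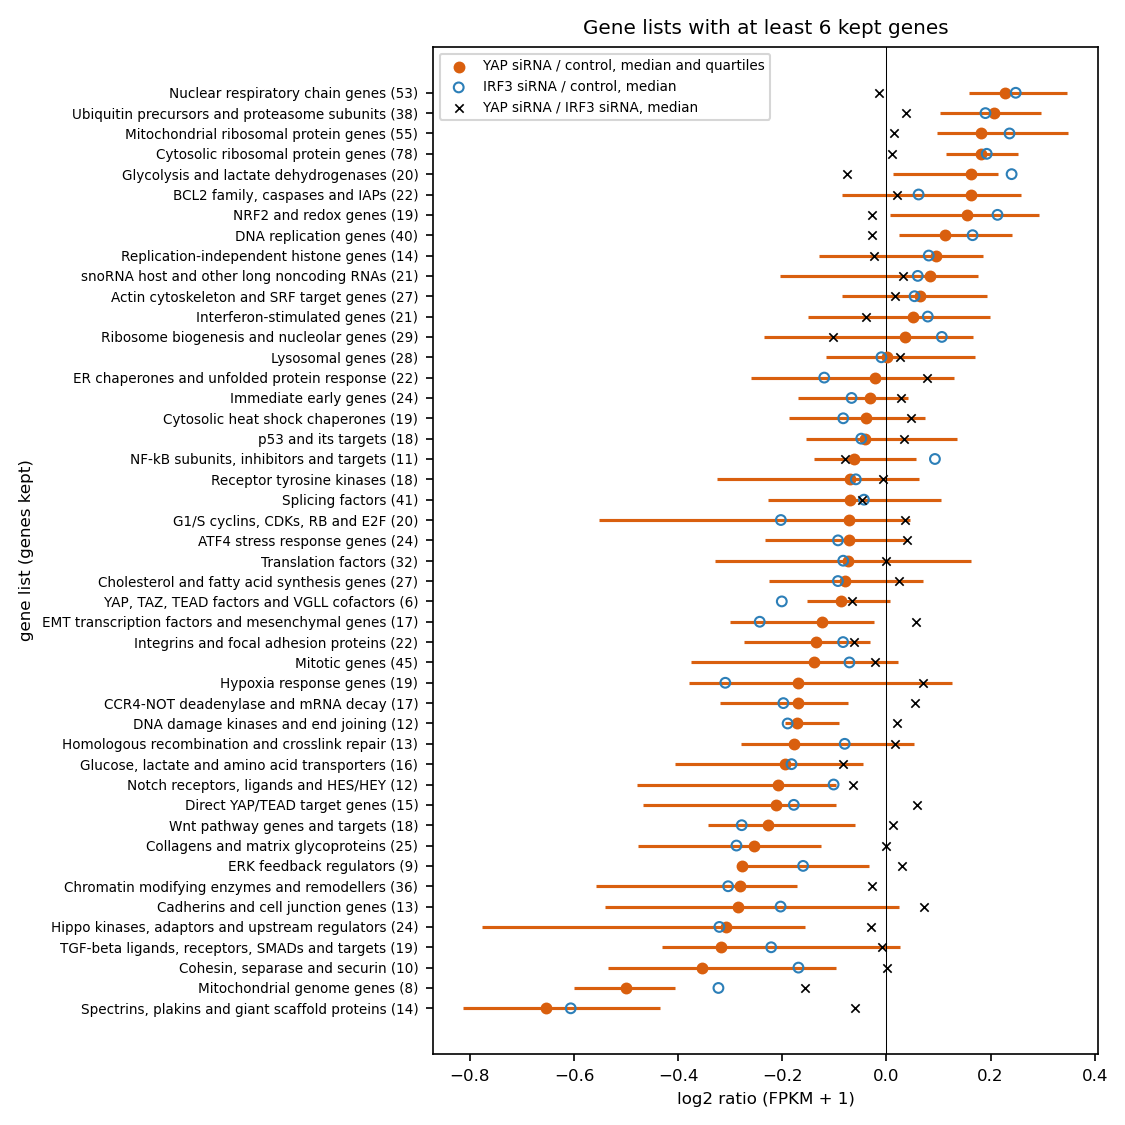
Median log2 ratios (x axis, FPKM plus 1) of the gene lists with at least 6 kept genes (y axis, number kept in brackets), with 1 library a condition. Filled points are YAP siRNA against control with their quartiles as lines, open points IRF3 siRNA against control and crosses YAP siRNA against IRF3 siRNA. The lists run from -0.65 for giant scaffold proteins to 0.23 for respiratory chain genes, and the crosses of these 2 lists lie at -0.06 and -0.02.

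Cell cycle lists held genes on both sides of the control, while matrix and TGF-beta genes were mostly lower. For all genes 22.2% of intervals lay above 1 and 30.2% below. DNA replication genes had a median of 0.11, with 20 of 40 intervals above 1 and 4 below. Mitotic genes had a median of -0.14, with 6 of 45 above and 23 below. CCND1, the G1 cyclin gene and a proposed YAP target, had 25.7, 14.8 and 15.3 FPKM (count ratio 0.596, 0.559 to 0.635), no lower than with IRF3 siRNA. E2F1 stood at 15.1, 21.7 and 21.8 FPKM. CDKN2A, the locus of the p16 and ARF inhibitors, was highest with YAP siRNA at 33.5, 39.1 and 52.02 FPKM (count ratio 1.55, 1.49 to 1.61). Collagens and matrix glycoproteins had 21 of 25 intervals below 1 and 0 above, at a median of -0.26, led by COL12A1, a fibril-associated collagen gene, at 3.78, 1.67 and 1.202 FPKM. There the YAP siRNA library was the lowest, with a count ratio of 0.720 (0.613 to 0.844) to the IRF3 siRNA library. The TGF-beta list had 13 of 19 intervals below 1 and 1 above and a median of -0.32, which became 0.04 among its members with a mean of at least 5 FPKM. SMAD7, the feedback inhibitor of that pathway, had 207, 170 and 103 counts (count ratio 0.482, 0.377 to 0.614).

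Some of the largest ratios belonged to gene records that share exons with a neighbour. CTD-2369P2.12 had 0, 0 and 776 counts, at least 251-fold higher with YAP siRNA against a floor of 3 counts in the control library. It shares exons with RAVER1 and FDX1L, and the summed counts gave a ratio of 0.764. AC007192.4 had 913, 1018 and 0 counts, at least 314-fold lower against the same floor, and gave 1.09 summed with PIK3R2 and IFI30. PPAN-P2RY11, a read-through of 2 adjacent genes, had 0, 322 and 453 counts and gave 1.22 when summed with both. Each record had no count in the control or in the YAP siRNA library, while the 3 summed ratios lay between 0.764 and 1.22. TEN1 (2.86, 4.90 and 8.43 FPKM) and TEN1-CDK3 (2.92, 3.22 and 0.429 FPKM) cover the same locus, went in opposite directions, and gave summed ratios of 0.947 and 0.951. Of the 39 genes higher by 2-fold 24 had a summed ratio of at least 2, and of the 52 lower genes 34 had one of 0.5 or less. Only 21 of the 39 and 26 of the 52 share exons. The others have nothing to sum and keep their own ratio, so they are among the 24 and the 34 by construction. These 2 counts therefore do not show how many exon-sharing genes stayed 2-fold apart.

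Chromosome 17 held 9 of the 39 higher genes (23.1%) and 6.74% of the kept genes. The 8 of them without a clone-based name were GLTPD2, OVCA2, RNASEK-C17orf49, H3F3B, TEN1, FBF1, UBB and UBL5P2, of which 6 share exons with another counted gene and FBF1 has a second record. H3F3B, FBF1 and TEN1 are neighbours within the stretch from 75776434 to 76000586. OVCA2, RNASEK-C17orf49 and TEN1 had summed ratios of 1.27, 1.17 and 0.947, while UBB kept 2.14. The median log2 ratio of all 748 kept genes on the chromosome was 0.02. The chromosome was singled out after its values were seen.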

How the data were processed

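Total RNA from 3 cultures of HGC-27 cells was extracted with TRIzol and sequenced from standard Illumina libraries, per the labels' protocols. Reads were aligned with TopHat2 2.0.9 to hg38, per the submitters' processing notes. The authors deposited, per the file headers, 1 table with a read count and an FPKM value for each gene and library. The counting tool, the annotation release, the use of strand and the siRNA sequences were not given in the sources used here. For each gene a length was worked out from the count and FPKM of its library with the most counts. All 45223 nonzero FPKM values compared in the other libraries lay within 1% of the count divided by that length and library total. The check shows only that FPKM and counts give the same ratios between libraries. Those lengths were not compared with the annotated exon lengths.

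Groups were taken from the labels, with 1 library each. Genes with a mean of at least 1 FPKM were kept, log2 ratios used a pseudocount of 1 FPKM, and 2-fold was the rule of size. Count ratios have exact (Clopper-Pearson) 95% binomial intervals from the counts as deposited. A floor of 3 replaced 0 counts only in the bounds given as "at least" a fold. The rule of an interval beyond 1.5-fold and the setting without shared exons were added after seeing the data. Exon lengths and shared exons came from GENCODE 29, which held 11072 (99.7%) of the kept genes, 10426 with identical coordinates. Promoters came from RefSeq, GRCh38.p14. The naming rules took the 15 genes with the largest ratio each way at 3 FPKM or more, and 8 each way below that with 50 counts. They took up to 10 each way that were 2-fold apart from both libraries. They also took up to 10 each way that changed 2-fold with YAP siRNA and under 1.2-fold with IRF3 siRNA. The rest were up to 3 each way in each of 52 lists and a fixed set led by YAP1 and its targets. The report draws from these, and other genes were named after their values were seen. The members and lists were chosen with earlier results of these data known. The interval and size rules were run on counts simulated with counting error alone. Those counts held no variation between cultures and no trend with length or GC content. The run therefore cannot show how often the rules err in these libraries. Alternatives changed the pseudocount, the filter, the scaling (TMM from edgeR 4.0.16 in R 4.3.3, or median-of-ratios), the gene class and shared exons. Python 3.11.15, numpy 2.4.6, pandas 2.3.3, scipy 1.17.1 and matplotlib 3.10.9 were used.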

Additional observations from a re-analysis of the deposited data

How the results depend on the processing

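No paired analysis was possible because each condition has 1 library, and for the same reason no library could be left out. The counts below are genes higher, lower, higher than both other libraries and lower than both, against 39, 52, 7 and 13 in the report. They were 106, 240, 25 and 33 with a pseudocount of 0.1 FPKM, 124, 255, 27 and 38 with median-of-ratios size factors, and 18, 18, 3 and 7 at a mean of at least 5 FPKM. With counts summed over overlapping exons they were 22, 32, 3 and 6, and among protein-coding genes that share no exons 10, 19, 0 and 2. By an interval beyond 1.5-fold they were 77, 490, 16 and 34. With TMM scaling of that interval, 86 were higher and 444 lower. Without a filter on FPKM 79 were lower and 18 higher than both others, TMM-scaled CPM gave 173 lower, an interval beyond 2-fold gave 95 lower, and among protein-coding genes 4 were higher and 8 lower than both others. Fewer genes tested lower the counts in the class and filter settings, and for the others the cause was not tested. The log2 ratio of YAP1 was -1.36 with a pseudocount of 0.1 FPKM, -1.33 with TMM-scaled CPM and -1.36 with median-of-ratios size factors. With summed counts 9 of 298 named genes changed sign, among them C15orf38-AP3S2 (-0.43) and TEN1 (-0.058), which were higher by 2-fold, and MATR3 (-0.147), higher by the 1.5-fold interval rule; others were TGFB1, ILK, GINS2, NFKBIB and HSPE1. The sign of a list's median changed in 5 of 48 lists at a mean of at least 5 FPKM, in 2 of 51 with median-of-ratios size factors and in 1 of 51 with TMM-scaled CPM. At a median of 481 counts for a kept gene in the control, low genes such as CTGF, with 49 counts, allow only wide intervals.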

Other observations

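Nutrient carriers, growth regulators and junction genes held several of the deeper decreases outside the lists described above, and most were as deep with IRF3 siRNA. Of 16 kept glucose, lactate and amino acid transporter genes 4 were lower by the 1.5-fold interval rule and 0 higher. Beside SLC16A1 these were SLC38A2 (5.62 FPKM in the control, 2.95 with IRF3 siRNA, 2.71 with YAP siRNA), SLC38A1 (3.06, 1.31 and 1.31 FPKM) and SLC7A6 (2.18, 1.37 and 1.19 FPKM), all amino acid carriers. The glucose transporter SLC2A1 had a count ratio of 0.885 (0.844 to 0.928), while BSG, the chaperone that brings lactate transporters to the membrane, stood at 140, 205 and 192 FPKM. LDHA, which makes lactate, had 71.7, 67.7 and 66.6 FPKM, so of these lactate genes SLC16A1 was the 1 that fell by the rule. In the G1/S list 5 of 20 kept genes were lower and 0 higher by the same rule, which called 4.41% of all genes lower and 0.694% higher. CCND2, a second D-type cyclin, went from 28.9 to 17.3 and 16.9 FPKM and RB1, the retinoblastoma suppressor, from 266 to 123 and 124 counts. Of 13 kept cadherin and junction genes 3 were lower and 1, F11R, higher. DSP, which encodes desmoplakin, had 2.88, 1.22 and 1.21 FPKM and TJP1, a tight junction scaffold, 2.28, 0.992 and 1.16 FPKM. HIF1A, the oxygen-regulated factor, had 491, 213 and 201 counts (count ratio 0.397, 0.335 to 0.469), while its target CA9 stood at 32.5, 48.2 and 42.8 FPKM.

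A few abundant genes stood higher with YAP siRNA than with IRF3 siRNA without reaching the 1.5-fold interval rule. EEF1A1, the elongation factor that brings tRNAs to the ribosome, had 44626, 44206 and 62376 counts and a count ratio of 1.36 (1.34 to 1.37) to the control and 1.47 (1.45 to 1.48) to the IRF3 siRNA library. SOD1, the cytosolic superoxide dismutase, had 85.4, 84.2 and 116 FPKM, with ratios of 1.36 (1.30 to 1.43) and 1.38 (1.32 to 1.45). In both genes the control and IRF3 siRNA libraries lay together. EIF4A1, an RNA helicase of translation initiation, had 31.9, 37.4 and 47.4 FPKM, though EIF3A, a large initiation factor subunit, fell to a count ratio of 0.489 (0.435 to 0.549). MALAT1, a nuclear long noncoding RNA, was lowest with IRF3 siRNA at 479, 153 and 255 counts. Among interferon-stimulated genes 2 of 21 kept were higher by the rule and 0 lower: UBE2L6 (12.5, 23.8 and 23.02 FPKM), the enzyme that conjugates ISG15, and IFITM1 (14.9, 29.8 and 28.9 FPKM), which shares exons and had a summed ratio of 1.39. ISG15 itself stood at 8.42, 8.503 and 8.26 FPKM. TWIST1, a transcription factor of mesenchymal cells, was the 1 of 17 kept mesenchymal genes that was higher by the rule. It stood at 83.3, 128 and 143 FPKM, beside VIM at 511, 451 and 469 FPKM. Of all genes 0.694% were higher by the rule.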
